A study of Rattus norvegicus with 6 samples.

Results

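Autophagy is the process by which a cell wraps its own proteins and organelles in a double membrane, the autophagosome, and delivers them to the lysosome for digestion. The Autophagy and lysosome genes described here are the rows of a rat skeletal muscle RNA-seq table whose gene name equals a name on a list of 37. Of these names 36 had a row, out of 30957 genes in the table, and all 36 passed the filter on low counts. Nbr1, a cargo receptor, is not analysed here. The 36 genes fell into 11 for initiation and membrane growth, 12 for conjugation of the Atg8 family, 2 cargo receptors, 3 transcription factors, 4 lysosomal proteases, 3 lysosomal membrane proteins and Vcp. The genes were taken by name, and the rule used no measured value.

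The ACS group was 3 libraries of flexor digitorum longus, a toe flexor of the hind limb, from wild-type Sprague-Dawley rats at 18 h after induction of acute osteofascial compartment syndrome (ACS). ACS was induced by tying a low-elastic band around the skin at the knee, so the muscle studied lay beyond the ligature. The control group was 3 libraries of the same muscle, strain and genotype at 0 h. Group and time differ together, so a difference due to ACS cannot be told apart from one due to elapsed time. The treatment label reads ACS for all 6 libraries, and the groups were taken from the titles. Whether each library came from a separate rat was not given in the sources used here, so the p-values measure the spread between these libraries, which may be partly technical.

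In autophagy, the Ulk1 kinase complex starts the process, a lipid kinase complex built on Pik3c3 and Becn1 marks the growing membrane, and proteins of the Atg8 family (the LC3 and Gabarap proteins) are attached to that membrane by the enzymes Atg7, Atg5, Atg12 and Atg16l1. Cargo receptors such as Sqstm1 (p62) hold ubiquitinated cargo to the Atg8 proteins, and lysosomal proteases digest it. In skeletal muscle the pathway removes damaged mitochondria and protein aggregates. Its genes are known to be transcribed under Tfeb, Tfe3 and Foxo factors. The table measures RNA, so it holds neither LC3 lipidation nor the passage of cargo to the lysosome.

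Library totals lay between 14340865 and 19376341 counts in ACS and between 18450886 and 21003928 in control. ACS replicate 1 stood apart: 43.4% of its counts fell on mitochondrial-chromosome genes, against 4.82% and 5.33% in the other ACS libraries and 7.52% to 8.6% in control. Muscle fibre markers summed to between 92038 and 212738 CPM in ACS and to between 141829 and 167840 CPM in control (CPM, library-size-scaled counts after TMM, the trimmed mean of M-values), and 0 of 10 tested passed the threshold. Neutrophil markers summed to 457, 45.4 and 91.6 CPM in ACS, against 3.26, 3.19 and 9.04 CPM in control. Of the 8 tested, 7 were higher, against 3.43% of all genes tested. The other neutrophil markers listed, Mpo, Elane, Camp and Ngp, did not pass the filter on low counts. In bulk tissue, fewer cells of a type and less RNA per cell cannot be told apart.

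Of the 36 genes, 1 was higher in ACS and 0 were lower at an adjusted p under 0.05 (edgeR quasi-likelihood test, Benjamini-Hochberg adjustment over all 12873 genes tested). Over all genes tested 4.14% passed, 3.43% higher and 0.707% lower. At an unadjusted p under 0.05 the count was 7 higher and 1 lower, against 23.5% of all genes. The gene that passed was Map1lc3b, which encodes LC3B. The median log2 fold change of the 36 genes was 0.0056, against -0.011 over all genes tested, and 19 were above 0 and 17 below. For 7 genes (19.4%) the ACS and control libraries did not overlap, against 31.5% of all genes tested. In 6 of these every ACS library lay above every control library (Map1lc3b, Gabarapl1, Atg7, Optn, Ctsb and Ctsl, against 16.7% of all genes), and in 1 every ACS library lay below (Atg4c, against 14.8%). The shares called and non-overlapping were thus no larger in the set than over all genes.

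**Figure D1:**
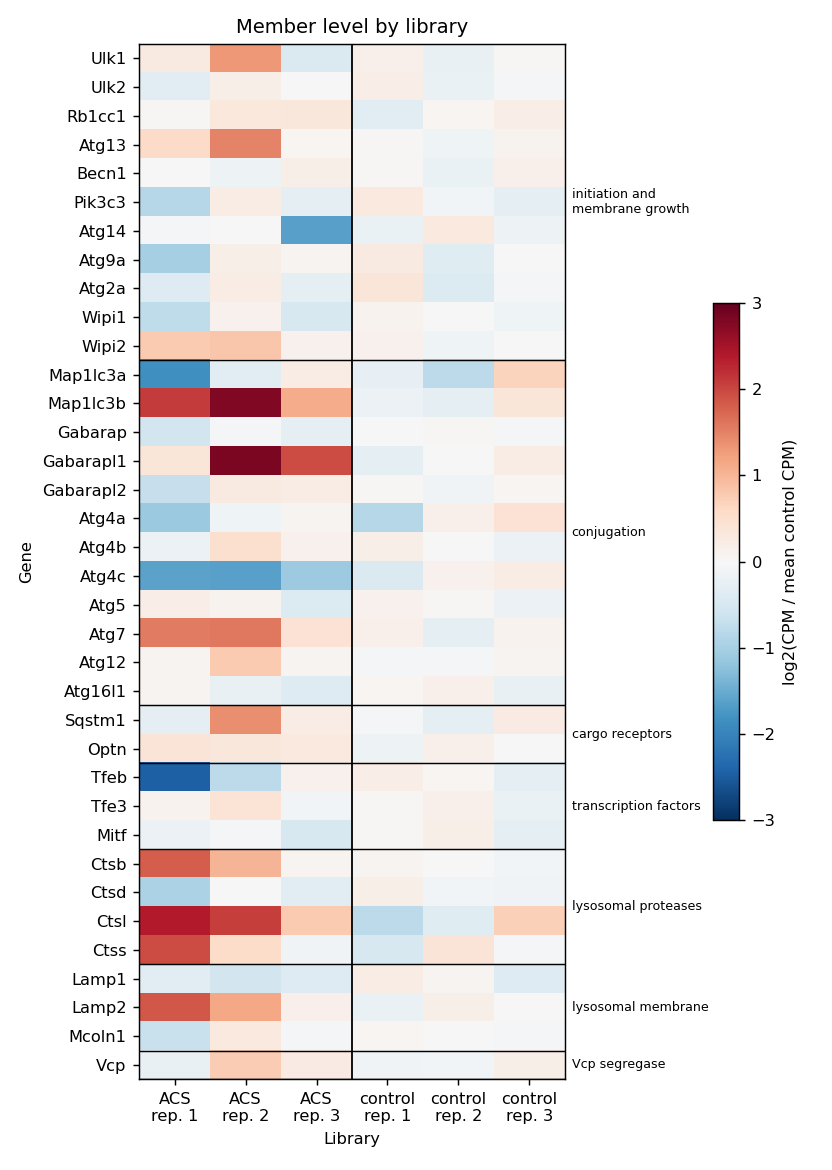
TMM-scaled CPM of the 36 genes (rows, grouped by role) in the 6 libraries (columns), as the log2 ratio to the mean of the 3 control libraries. Map1lc3b is above the control mean in all 3 ACS libraries and Atg4c below it, while Ctsb, Ctsl and Lamp2 are highest in ACS replicate 1.

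Within ACS the libraries differed more than within control. The highest ACS value was in replicate 2 for 22 of the 36 genes (61.1%, against 30.1% of all genes tested). It was in replicate 1 for 8 (22.2%, against 37.6%) and in replicate 3 for 6 (16.7%, against 32.3%). The median ratio of the highest to the lowest library was 1.96 in ACS and 1.31 in control, close to the 2.01 and 1.39 over all genes. For 28 of the 36 genes (77.8%) the spread was wider in ACS, against 79.5% of the 12667 tested genes with a count in every library.

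Scaling affected the direction of small differences. Scaling by library totals in place of TMM moved the median of all genes tested to -0.32 and that of the 36 genes to -0.29. On that scale, and in the authors' FPKM, 8 of the 36 genes did not overlap (22.2%, against 36.8% of all genes): Atg7 and Map1lc3b lay above control, and Atg16l1, Atg4c, Ctsd, Gabarap, Lamp1 and Mitf below. The differences given below are on the TMM scale unless another is named.

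Promoter sequences are shown for 6 genes, chosen after the values and matches were seen: the genes with the largest fold changes (Map1lc3b, Gabarapl1, Ctsl), of which only Map1lc3b passed the test, and those whose promoter holds the extended E-box (Ctsd, Lamp1, Mcoln1). Each runs 5′ to 3′ on the gene's strand from 250 bases before to 50 bases after the start site in RefSeq, in the rat build GRCr8, a later build than that of the count table. Capitals mark matches, on either strand, to CACGTG (the E-box bound by Tfeb, Tfe3 and Mitf), TCACGTGA (its extended form, which contains the shorter motif), the AP-1 site or the antioxidant response core, whose letters are given with their counts.
Map1lc3b, chr19:66574345-66574644, plus strand: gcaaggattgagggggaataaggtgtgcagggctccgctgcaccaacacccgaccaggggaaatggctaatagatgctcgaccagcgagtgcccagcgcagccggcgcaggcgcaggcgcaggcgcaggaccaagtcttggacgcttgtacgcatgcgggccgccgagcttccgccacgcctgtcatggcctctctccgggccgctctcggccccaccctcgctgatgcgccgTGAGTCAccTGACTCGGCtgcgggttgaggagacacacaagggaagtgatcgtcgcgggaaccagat
Gabarapl1, chr4:164666082-164666381, plus strand: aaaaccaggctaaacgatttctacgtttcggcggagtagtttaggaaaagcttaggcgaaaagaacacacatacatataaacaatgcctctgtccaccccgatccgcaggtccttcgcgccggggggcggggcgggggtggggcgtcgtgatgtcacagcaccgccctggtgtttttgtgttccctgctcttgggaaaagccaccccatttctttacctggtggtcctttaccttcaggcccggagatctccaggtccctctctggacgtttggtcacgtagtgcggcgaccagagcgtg
Ctsl, chr17:769854-770153, plus strand: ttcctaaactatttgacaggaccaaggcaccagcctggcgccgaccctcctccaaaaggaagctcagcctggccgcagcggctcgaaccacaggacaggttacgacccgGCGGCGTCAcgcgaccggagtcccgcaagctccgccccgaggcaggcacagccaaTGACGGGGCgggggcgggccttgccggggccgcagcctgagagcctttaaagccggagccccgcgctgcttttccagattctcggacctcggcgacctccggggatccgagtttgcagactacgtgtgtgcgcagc
Ctsd, chr1:206968772-206969071, minus strand: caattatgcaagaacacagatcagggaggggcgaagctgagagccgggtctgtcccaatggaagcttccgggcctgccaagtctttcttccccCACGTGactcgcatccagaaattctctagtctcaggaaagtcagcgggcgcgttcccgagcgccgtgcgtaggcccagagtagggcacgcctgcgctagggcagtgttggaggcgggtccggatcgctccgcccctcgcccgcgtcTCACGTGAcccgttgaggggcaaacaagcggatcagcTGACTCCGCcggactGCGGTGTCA
Lamp1, chr16:83075014-83075313, minus strand: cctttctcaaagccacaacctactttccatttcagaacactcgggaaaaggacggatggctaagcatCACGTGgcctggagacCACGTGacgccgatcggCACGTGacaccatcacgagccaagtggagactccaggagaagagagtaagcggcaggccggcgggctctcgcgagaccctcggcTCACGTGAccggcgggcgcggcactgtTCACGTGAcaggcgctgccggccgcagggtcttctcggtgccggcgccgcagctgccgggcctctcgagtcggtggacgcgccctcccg
Mcoln1, chr12:6358008-6358307, plus strand: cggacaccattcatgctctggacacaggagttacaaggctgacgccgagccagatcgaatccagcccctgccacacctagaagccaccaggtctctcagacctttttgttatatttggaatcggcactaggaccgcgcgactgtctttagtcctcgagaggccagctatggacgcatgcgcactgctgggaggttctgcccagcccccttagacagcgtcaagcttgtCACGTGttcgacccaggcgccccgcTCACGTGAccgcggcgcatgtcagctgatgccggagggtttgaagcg

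RefSeq promoters were matched for 31 of the 36 genes and set beside all 33469 promoters of the table. CACGTG was found in 5 of the 31 (16.1%: Ctsd, Mcoln1, Atg14, Lamp1 and Atg5), against 6.42% of all promoters. TCACGTGA was found in 3 (9.68%: Ctsd, Mcoln1 and Lamp1), against 0.777%. The Lamp1 promoter held 5 copies of CACGTG, 2 of them inside TCACGTGA. None of these 5 genes passed the test: Ctsd and Lamp1 had log2 fold changes of -0.39 and -0.42, Mcoln1 of -0.08, Atg14 of -0.40 and Atg5 of -0.01.

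The AP-1 site, TGAGTCA, stood in the promoter of 1 of the 31 genes, Map1lc3b (3.23%, against 4.63% of all promoters), at bases 234 to 240 of the sequence shown, 17 bases before the start site. The antioxidant response core, TGACNNNGC, stood in 7 of the 31 (22.6%, against 12.1%), at bases 243 to 251 in Map1lc3b and at bases 110 to 118 and 165 to 173 in Ctsl. The other carriers were Ctsd, Gabarap, Ulk2, Atg4b and Vcp, with log2 fold changes of -0.39, -0.28, -0.02, 0.18 and 0.31, of which none passed. GTAAACA, the only form of the Foxo site searched, was found in 0 of 31 (against 3.78%). The Gabarapl1 window held no match to any of the 5 motifs searched. It does hold ATAAACA, which differs from GTAAACA in its first base and was not searched or counted. A match is a run of letters in a window of 300 bases and shows no binding, and a missing match says nothing of the factor.

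Of the 11 initiation genes 0 passed the test and 0 had non-overlapping groups, with a median log2 fold change of -0.02 and a range of -0.40 (Atg14) to 0.83 (Atg13). Their adjusted p lay between 0.213 and 0.991 (edgeR). Ulk1, the kinase that starts autophagy, had 108, 218 and 65.5 CPM in ACS, against 99.2, 76.5 and 90.2 CPM in control. ACS replicate 2 was the high library and replicate 3 lay below all controls, and the log2 fold change was 0.55 ± 0.42 (SE, adjusted p = 0.453). Leaving out ACS replicate 2 gave -0.08.

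Atg13, the subunit that links Ulk1 to its scaffold, followed the same order, with 32.1, 60.5 and 22.5 CPM in ACS, against 22, 19.5 and 23.1 CPM in control (log2 fold change 0.83 ± 0.37, adjusted p = 0.213, edgeR). Rb1cc1 (FIP200), that scaffold, had 128, 154 and 157 CPM in ACS, against 98.9, 131 and 144 CPM in control. The groups overlapped, and the log2 fold change was 0.23 on the TMM scale and -0.07 when scaled by library totals. Ulk2, the second kinase, had 79.8, 112 and 100.5 CPM in ACS, against 115, 86.2 and 96.2 CPM in control (-0.02).

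The genes of the lipid kinase complex did not pass. Becn1, its regulatory subunit, had 39.9, 36.6 and 45.3 CPM in ACS, against 41.2, 35.4 and 44.8 CPM in control, and its log2 fold change was 0.01 with a 95% interval of -0.52 to 0.54. Pik3c3, the catalytic subunit, had -0.23, and Atg14, the subunit that directs the complex to autophagosomes, had -0.40, with 8.79, 9.20 and 2.96 CPM in ACS against 7.99, 11.4 and 8.25 CPM in control. The low Atg14 value was that of ACS replicate 3 alone.

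Atg9a, a membrane protein that brings vesicles to the growing autophagosome, had 75.5, 171 and 161 CPM in ACS, against 184, 117 and 154 CPM in control (-0.16). Per length it was the most abundant initiation gene in both groups, at 31.1 FPKM in ACS and 41.6 FPKM in control. Atg2a, which moves lipid into the new membrane, had -0.12. Wipi1, which binds the lipid that Pik3c3 makes, had -0.32, and its gene shares 3585 bases with Arsg on the opposite strand, so its reads may not be told apart from those of Arsg. Wipi2, which recruits Atg16l1, had 41.1, 42.9 and 26.3 CPM in ACS, against 26.3, 21.9 and 23.9 CPM in control, a log2 fold change of 0.61 ± 0.27 (SE, adjusted p = 0.213, edgeR). Its lowest ACS library and highest control library were level.

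**Figure D2:**
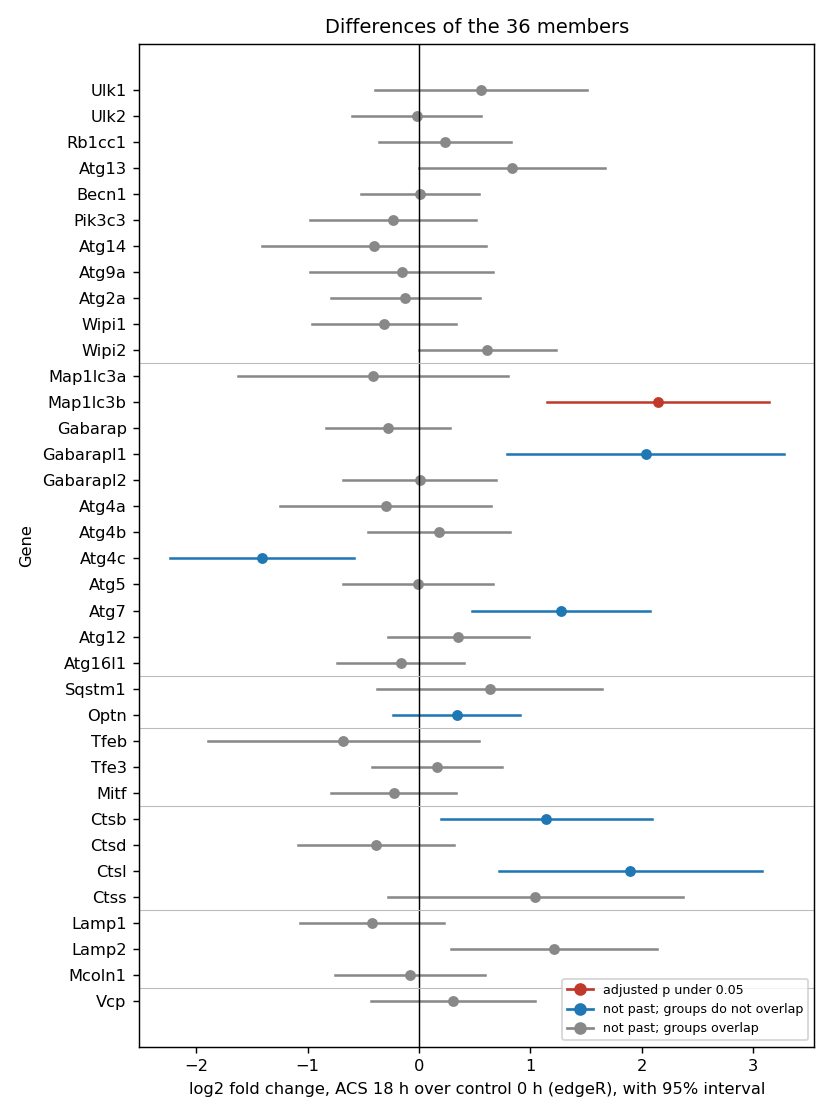
Log2 fold change of ACS over control for the 36 genes (points) with 95% intervals (bars, edgeR), grouped by role. Map1lc3b, at 2.15, is past the adjusted threshold (red), the other 6 genes with non-overlapping groups are in blue and the 29 with overlapping groups in grey.

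The Atg8 family divided between its members. Map1lc3b and Gabarapl1 had higher levels in all 3 ACS libraries, of which Map1lc3b passed the test, while Map1lc3a, Gabarap and Gabarapl2 had log2 fold changes of -0.41, -0.28 and 0.01. Map1lc3b (ENSRNOG00000017905, chr19:53629779-53646058 in Rnor 6.0, plus strand) had 347, 559 and 177 CPM in ACS, against 72.6, 67.4 and 104 CPM in control. Every ACS library lay above every control library. The means were 361 ± 191 CPM in ACS and 81.4 ± 19.9 CPM in control (SD, n = 3 each). Map1lc3b was 4.44-fold higher in ACS, a log2 fold change of 2.15 ± 0.44 (SE, 95% interval 1.15 to 3.15, adjusted p = 0.0378, edgeR).

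The Map1lc3b call depended on the libraries and on the scaling, and its direction was upward under each of 17 alternatives, of which it passed 9. Its adjusted p (edgeR) was 0.0701 without ACS replicate 2, 0.196 without control replicate 1, 0.189 without control replicate 2 and 0.129 without control replicate 3. It was 0.0582 with library totals, and 0.0704 by limma on the authors' FPKM, with log2 fold changes of 1.85 and 1.67. One library of each group carries "ji" in its description, and with a term for these libraries the adjusted p was 0.0722, while without them it was 0.0421 (2.69). With any 1 of the control libraries removed, 0 genes of the whole table passed with edgeR, and 2075, 2063 and 2289 had an unadjusted p under 0.05. Other fits called more genes, in the set and over the table: DESeq2 and limma-voom with quality weights each called 5 of the 36 (Map1lc3b, Gabarapl1, Atg7, Ctsl and Atg4c), against 11.9% and 11.0% of all genes. Without ACS replicate 1 edgeR called 2 of the 36 (6.68% of all genes), and without ACS replicate 3 it called 6 (12.7%).

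Gabarapl1, which like Map1lc3b is a known target of Foxo3 in mouse muscle, had 92.6, 510.2 and 278 CPM in ACS, against 59.9, 71.4 and 83.8 CPM in control. Replicate 1 of ACS lay just above the control range, and replicate 2 was the highest. The means were 294 ± 209 CPM in ACS and 71.7 ± 11.9 CPM in control (SD, n = 3 each), and the log2 fold change of 2.03 ± 0.54 (SE) did not pass (adjusted p = 0.0705, edgeR). Leaving out ACS replicate 1 gave 2.46, which passed (adjusted p = 0.00477), and leaving out replicate 2 gave 1.34. Scaled by library totals, the lowest ACS library overlapped the control range.

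Gabarap, the most abundant family member in control, had 72.6, 104 and 86.9 CPM in ACS, against 107, 109 and 104 CPM in control (-0.28, adjusted p = 0.523, edgeR). Map1lc3a had 18.0, 50.8 and 75.0 CPM in ACS, against 53.8, 37 and 101 CPM in control. Its groups overlapped widely, and the log2 fold change of -0.41 was 0.05 without control replicate 3. Gabarapl2 had 16, 31.3 and 30.2 CPM in ACS, against 26.6, 24.1 and 26.7 CPM in control, and the sign of its difference changed under 14 of 17 alternatives. RefSeq for GRCr8 names pseudogenes after 5 of the 36 genes: 3 after Gabarap, 3 after Gabarapl2, 2 after Map1lc3b and 1 each after Sqstm1 and Atg4b. No label or header says how reads that match several places were counted, and the effect of such reads on these levels was not tested.

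Within a library, where scaling plays no part, the make-up of the family differed in the same way. In the authors' FPKM, which are per gene length, Map1lc3b and Gabarapl1 together gave 63.2%, 73.0% and 54.2% of the 5 genes' sum in ACS, against 24.7%, 27.5% and 27.4% in control. Map1lc3b was 88.8%, 81.8% and 49.1% of the LC3 pair in ACS, against 35.5%, 42.7% and 29.6% in control. Gabarapl1 was 35.8%, 67.3% and 57.0% of the Gabarap trio in ACS, against 19.5%, 22.2% and 25.7% in control. These shares were chosen after the values were seen and were not tested. Each ACS library lay above each control library in all 3 shares.

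**Figure D3:**
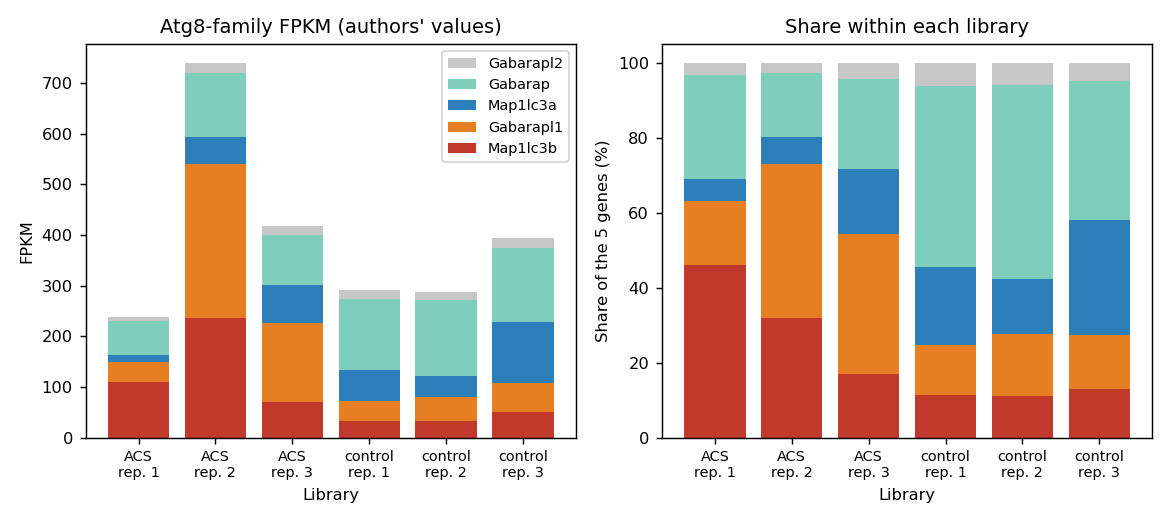
Authors' FPKM of the 5 Atg8-family genes, stacked by library (left), and the same values as a percentage of their sum (right). Map1lc3b and Gabarapl1 (the lowest pair of segments) together make up 54.2% to 73.0% in ACS and 24.7% to 27.5% in control.

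Among the conjugation enzymes, Atg7 and Atg4c had non-overlapping groups in opposite directions, and neither passed the test. Atg7 (chr4:146598413-146777124 in Rnor 6.0), the E1-like enzyme that activates both Atg12 and the Atg8 proteins, had 30.1, 30.6 and 14.0 CPM in ACS, against 11.4, 8.36 and 11.1 CPM in control. All ACS libraries lay above control, with replicate 3 the closest. The log2 fold change was 1.27 ± 0.35 (SE, adjusted p = 0.0743, edgeR), and it passed when replicate 3 of ACS was left out, at 1.55 (adjusted p = 0.0144).

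Atg4c, one of the proteases that trim Atg8 proteins, is at chr5:117877594-117931003 in Rnor 6.0 and was among the least abundant genes of the set. It had 20, 36 and 48 counts in ACS, against 86, 129 and 161 counts in control, which is 1.87, 1.85 and 2.68 CPM in ACS against 4.19, 6.23 and 6.64 CPM in control. Each ACS library lay below each control library. The log2 fold change of -1.41 ± 0.36 (SE) did not pass (adjusted p = 0.0626, edgeR). It passed without ACS replicate 3 (-1.62, adjusted p = 0.0386) and when scaled by library totals (-1.72, adjusted p = 0.0440). The other Atg4 proteases overlapped between groups, Atg4a with a log2 fold change of -0.30 and Atg4b, with 10.7, 16.8 and 13.1 CPM in ACS against 13.4, 11.8 and 10.6 CPM in control, of 0.18.

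The complex that attaches Atg8 proteins to the membrane did not pass. Atg12 had 19.1, 31.0 and 19.2 CPM in ACS, against 17.6, 17.5 and 19.1 CPM in control (0.35, adjusted p = 0.472, edgeR). Atg5, its partner, had 10, 9.36 and 6.52 CPM in ACS, against 9.50, 8.84 and 7.68 CPM in control (-0.01). Atg16l1, which places the complex on the membrane, had 26.6, 21.3 and 19.2 CPM in ACS, against 26.0, 27.8 and 21.4 CPM in control (-0.16), and its gene contains copies of the small RNA SCARNA6, so its reads may be shared with them.

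The cargo receptors were abundant and did not pass. Sqstm1 (p62), the receptor for ubiquitinated cargo, had 343, 1095 and 486 CPM in ACS, against 404, 342 and 494 CPM in control. Replicate 2 of ACS alone lay above control. The log2 fold change was 0.63 ± 0.45 (SE, adjusted p = 0.423, edgeR) and was -0.03 without that library. Optn, the receptor optineurin, had 282, 273 and 268 CPM in ACS, against 194, 243 and 215 CPM in control. Its ACS libraries were close to each other and all above control (275 ± 7.3 CPM in ACS and 217 ± 24.3 CPM in control, SD, n = 3 each), with a log2 fold change of 0.34 ± 0.25 (SE, adjusted p = 0.446, edgeR). Scaled by library totals the difference was 0.01, so the separation of Optn rests on TMM scaling.

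**Figure D4:**
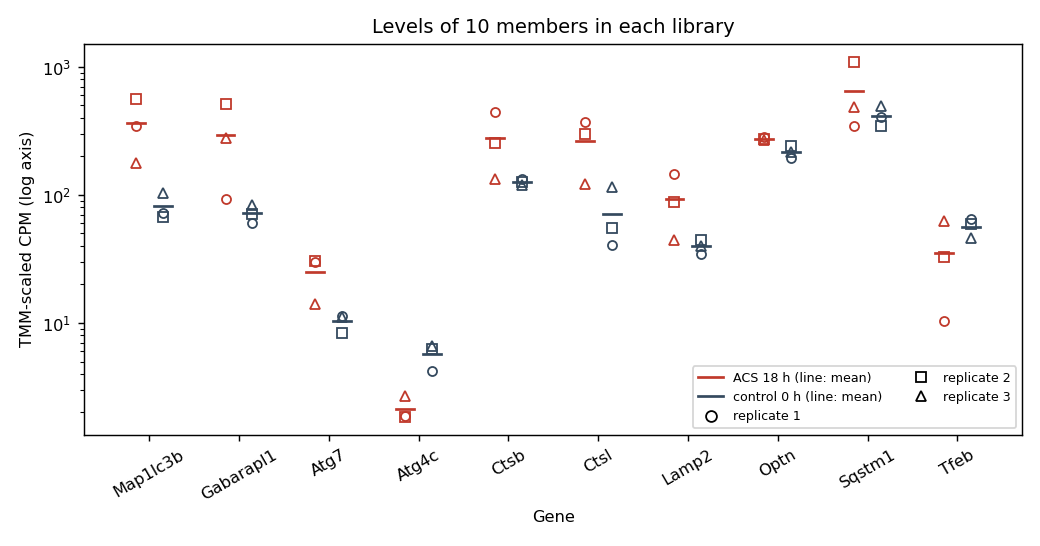
TMM-scaled CPM (log axis) of 10 genes in each library, ACS in red at the left of each pair and control in dark blue. Symbols give the replicate number and lines the group mean. Optn varies least among the ACS libraries, and the Sqstm1 mean of 641 CPM in ACS rests on replicate 2.

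The transcription factors of the pathway did not pass, with adjusted p between 0.472 and 0.730 (edgeR). Tfeb, the factor best known for driving lysosomal genes, had 10.3, 32.9 and 62.1 CPM in ACS, against 64.6, 58.8 and 45.7 CPM in control. The lowest value was that of ACS replicate 1, and replicate 3 lay within the control range. The log2 fold change was -0.68 ± 0.53 (SE, adjusted p = 0.472), and -0.25 without replicate 1. Tfe3 had 18.9, 23.4 and 16.6 CPM in ACS, against 18.0, 19.5 and 15.3 CPM in control. The Tfe3 difference was 0.16, and -0.15 when scaled by library totals. Mitf, a related factor, had 36.7, 39.6 and 29.9 CPM in ACS, against 42.7, 47.1 and 34.6 CPM in control (-0.23).

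Of the 4 lysosomal proteases 0 passed the test. Ctsl and Ctsb lay above control in each ACS library on the TMM scale but overlapped control when scaled by library totals, and Ctsd had a negative fold change. Ctsl (cathepsin L, a cysteine protease whose RNA is known to rise in wasting muscle; chr17:1872848-1879279 in Rnor 6.0, minus strand) had 368, 299 and 122 CPM in ACS, against 40.8, 54.7 and 116 CPM in control. The lowest ACS library and the highest control library, both replicate 3, were close. The log2 fold change was 1.90 ± 0.52 (SE, adjusted p = 0.0728, edgeR). It passed without ACS replicate 3 (2.23, adjusted p = 0.0255).

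Ctsb, cathepsin B, is a cysteine protease at chr15:46316741-46337612 in Rnor 6.0. It had 445, 256 and 134 CPM in ACS, against 133, 126 and 119 CPM in control. The control libraries were tight, and ACS replicate 3 lay just above them. The means were 278 ± 157 CPM in ACS and 126 ± 6.66 CPM in control (SD, n = 3 each), and the log2 fold change was 1.14 ± 0.42 (SE, adjusted p = 0.142, edgeR). Leaving out ACS replicate 1 gave 0.63, and leaving out replicate 3 gave 1.47, which passed (adjusted p = 0.0277).

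Ctsd, cathepsin D, is an aspartic protease and the most abundant protease of the set in control. It had 139.8, 266 and 213 CPM in ACS, against 303, 257 and 249.6 CPM in control. The groups overlapped through ACS replicate 2, and the log2 fold change was -0.39 ± 0.31 (SE, adjusted p = 0.478, edgeR). Ctss, cathepsin S, a protease best known from antigen-presenting cells, had 5.61, 2.11 and 1.34 CPM in ACS, against 1.02, 1.88 and 1.4 CPM in control. Its log2 fold change of 1.04 was 0.26 without ACS replicate 1.

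By the authors' FPKM, Ctsd was 13.1%, 29.4% and 42.2% of the 4 proteases' sum in ACS, against 61.4%, 55.9% and 48.0% in control. Ctsl was 42.5%, 40.7% and 29.6% of that sum in ACS, against 10.2%, 14.7% and 27.5% in control. The order of the protease means differed between groups, with Ctsl at 140.1 FPKM first in ACS and Ctsd at 149 FPKM first in control. The ACS libraries did not share 1 order: Ctsb was first in replicate 1, Ctsl in replicate 2 and Ctsd in replicate 3. Ctsd was first in each control library. These shares were also chosen after the values were seen and were not tested.

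The lysosomal membrane genes showed a similar split without passing. Lamp2, a membrane glycoprotein whose loss causes Danon myopathy in humans, is at chrX:124722628-124766044 in Rnor 6.0. It had 145, 88.2 and 44.1 CPM in ACS, against 34.6, 44.8 and 39.9 CPM in control. Replicates 1 and 2 of ACS lay above all controls and replicate 3 among them. The log2 fold change was 1.21 ± 0.41 (SE, adjusted p = 0.117, edgeR), 0.73 without ACS replicate 1, and 1.54 without ACS replicate 3, where it passed (adjusted p = 0.0201).

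Lamp1, its close relative and the gene with the highest FPKM of the set in control, had 366, 315 and 352 CPM in ACS, against 539.5, 491 and 354 CPM in control. Control replicates 1 and 2 stood above all ACS libraries and replicate 3 lay among them (-0.42 ± 0.28, SE, adjusted p = 0.402, edgeR). Lamp2 was 31.1%, 24.2% and 12.5% of the Lamp pair by FPKM in ACS, against 6.82%, 9.42% and 11.4% in control. Mcoln1, a calcium channel of the lysosome, had 10.5, 20.5 and 16.2 CPM in ACS, against 17.4, 16.4 and 16.2 CPM in control (-0.08, adjusted p = 0.889, edgeR). Vcp, the segregase that pulls ubiquitinated proteins from complexes and is mutated in a human inclusion body myopathy, had 321, 631 and 441 CPM in ACS, against 351, 352 and 422 CPM in control (0.31, adjusted p = 0.593, edgeR).

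The monocyte and macrophage marker sum and the endothelial marker sum put the ACS libraries in the same order as Ctsb, Ctsl, Ctss and Lamp2. Of all genes tested, 37.6% had their highest ACS value in replicate 1, and the share with this full order was not counted. Ctsd, Lamp1 and Mcoln1 had other orders, and the muscle fibre marker sum had the reverse order. Of the single muscle fibre markers, Ckm, Acta1, Myh1 and Pygm had that reverse order. Myh7, Tnnt3, Tnnc2, Mb, Des and Atp2a1 did not. Monocyte and macrophage markers (14 of 14 matched) summed to 1830, 183 and 123 CPM in ACS, against 50.3, 79.7 and 65.4 CPM in control. Lyz2 gave 1552 CPM of the ACS replicate 1 sum, Marco was at 0 in every library, and of 11 tested 1 passed (Gpnmb, higher). Adgre1 lay below control in every ACS library (-1.30, adjusted p = 0.203, edgeR). ACS replicate 1 also had the highest Ctsb, Ctsl, Ctss and Lamp2 and the lowest Ctsd. ACS replicate 3 had the lowest sum of these markers and the lowest Ctsb, Ctsl, Ctss and Lamp2 among the ACS libraries. Lymphocyte and dendritic cell markers summed to 43.6, 2.37 and 5.74 CPM in ACS, against 2.19, 1.26 and 1.03 CPM in control, with 0 of 1 tested past the threshold. Both this sum and that of the neutrophil markers were lowest, among the ACS libraries, in replicate 2. Red cell markers (4 of 6 matched) summed to 10312, 1745 and 4408 CPM in ACS, against 1175, 445 and 1220 CPM in control, and 2 of 4 tested were higher. Fibroblast markers summed to between 1615 and 1981 CPM in ACS, against 434 to 733 CPM in control, with Col1a2 at 0 and 0 of 6 tested past the threshold. Col1a1 alone gave 768, 1488 and 1670 CPM in ACS, against 510, 112 and 449 CPM in control. Col1a1 and Pdgfra lay above control in every ACS library, while Dcn, Lum, Pdgfrb and Dpt overlapped. Endothelial markers (6 of 7 matched) summed to 521, 313 and 176 CPM in ACS, against 365, 232 and 290 CPM in control. Of 6 tested, 0 passed the threshold. Muscle fibre markers summed to 92038, 132445 and 212738 CPM in ACS replicates 1, 2 and 3. The part of other cell types in the lysosomal values was not tested. Gabarapl1 and Sqstm1 followed another order, being lowest in ACS replicate 1 and highest in replicate 2.

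**Figure D5:**
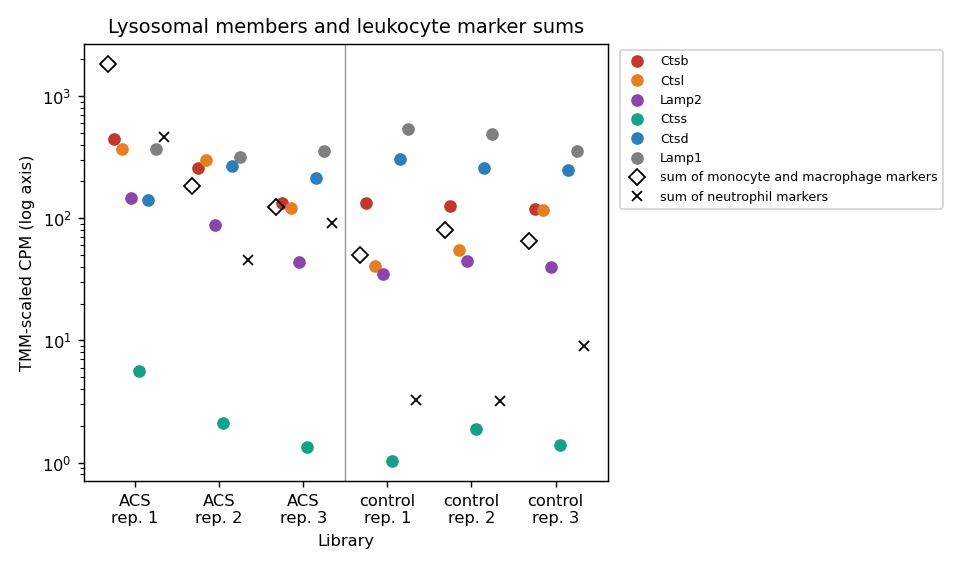
TMM-scaled CPM (log axis) of 6 lysosomal genes, the sum of 14 monocyte and macrophage markers (diamonds) and the sum of 12 neutrophil markers (crosses) in each library. In ACS replicate 1 both marker sums are at their highest (1830 and 457 CPM), together with Ctsb, Ctsl, Lamp2 and Ctss.

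Per length, the most abundant genes of the set differed between groups. In ACS the highest mean FPKM were those of Sqstm1 (256), Gabarapl1 (167), Lamp1 (154), Ctsl (140.1) and Map1lc3b (139). In control they were those of Lamp1 (259), Sqstm1 (196), Ctsd (149), Gabarap (145) and Vcp (132). Neighbours in the ACS order did not differ beyond their spread, since the SD was 132 FPKM for Gabarapl1 and 86.6 FPKM for Map1lc3b. Gabarapl1 ranked 2 in ACS and 9 in control, and Map1lc3b ranked 5 in ACS and 11 in control.

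Other genes of the pathway came from a list of 109, of which 104 were matched and 98 tested. Of the 98, 3 were higher in ACS and 0 lower (edgeR), against 3.43% and 0.707% of all genes tested. Their median log2 fold change was 0.06, and 31 were non-overlapping (31.6%, against 31.5% of all genes). Fnip2, a partner of folliculin in lysosomal nutrient sensing, had 193, 134 and 80.0 CPM in ACS, against 16.7, 18.6 and 19.3 CPM in control. All ACS libraries stood far above control, and the log2 fold change of 2.90 ± 0.35 (SE, adjusted p = 0.0119, edgeR) passed in 14 of 17 alternatives. The exceptions left out 1 control library each (adjusted p 0.0743 to 0.100).

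Sesn2, which passed in 10 of the 17 alternatives, encodes a stress-induced inhibitor of mTORC1 and had 50.6, 30.7 and 14.7 CPM in ACS, against 8.62, 6.96 and 7.39 CPM in control. It rose by 2.06 ± 0.43 on the log2 scale (SE, adjusted p = 0.0406, edgeR; 0.0747 without ACS replicate 2, and 0.156 to 0.185 without 1 control library). Atp6v1h, which passed in 9 of the 17, encodes a subunit of the proton pump that acidifies the lysosome and had 32.6, 89.4 and 46.0 CPM in ACS, against 11.5, 15.6 and 14.4 CPM in control. It rose by 2.02 ± 0.39 on the log2 scale (SE, adjusted p = 0.0330, edgeR; 0.0548 without ACS replicate 2, and 0.139 to 0.189 without 1 control library).

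By list, 2 of 21 tested genes of mTORC1 and nutrient sensing passed (Fnip2 and Sesn2). Of the lysosomal membrane and proton pump 1 of 17 passed (Atp6v1h). Over all genes tested 4.14% passed. None of 20 other autophagy genes, 11 other receptors and mitophagy genes, 19 other lysosomal hydrolases or 10 Vcp cofactors passed. The genes of these lists with the highest FPKM in control were Rab7a (130.4 FPKM in ACS and 113 FPKM in control), which directs traffic to the lysosome, Pink1 (153 FPKM in ACS and 286 FPKM in control), a kinase that marks damaged mitochondria, Psap (257 FPKM in ACS and 301 FPKM in control), the precursor of lysosomal lipid-binding proteins, and the Vcp cofactor Ubxn1 (52.2 FPKM in ACS and 63.8 FPKM in control). Their adjusted p lay between 0.289 and 0.962 (edgeR).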

How the data were processed

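Total RNA was depleted of ribosomal RNA before sequencing, per the labels' protocols. The deposited table gives whole-number counts and the authors' FPKM (fragment counts per gene length and library size) per Ensembl gene. Per the submitters' processing notes, the tools were HISAT2 2.0.4 and StringTie 1.3.0 and the build Rnor 6.0. The counting tool, strand setting and handling of shared reads were not given in the sources used here. Genes were kept with filterByExpr (minimum count 10, minimum total 15; 12873 of 18776 with a count), scaled with TMM and tested with edgeR 4.0.16 (quasi-likelihood F test, threshold 0.05) in R 4.3.3. The common biological coefficient of variation was 0.381. Alternatives used other scalings, DESeq2 1.42.0, limma 3.58.1 (also on log2(FPKM + 1) for the 11040 genes with an FPKM of 1 or above in 3 libraries), no filter, other terms and left-out libraries. Chi-square per degree of freedom between libraries lay between 38.2 and 721, so none was a duplicate. The test was also run on simulated counts, with an outcome not given here. Those counts held no outlying library, so that run does not bear on a library such as ACS replicate 1. The members and lists were chosen with earlier results of these data known. Named are all 36 members, and of other pathway genes those past the threshold or, in a list with none, the most abundant by FPKM in control. Figures used matplotlib 3.10.9.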

Additional observations from a re-analysis of the deposited data

How the results depend on the processing

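Against 1 of the 36 genes higher and 0 lower, DESeq2 and limma-voom with quality weights gave 4 higher and 1 lower each (5 of 36, with 11.9% and 11.0% of all genes called), library totals and FPKM 0 higher and 1 lower, no filter 3 higher, the replicate block and the term for "ji" libraries 0 higher, leaving out both "ji" libraries 2 higher, and leaving out 1 library 0 to 5 higher and 0 to 1 lower. Deviations of same-numbered libraries from their group means had correlations of -0.0629, 0.0105 and 0.0397. With 3 libraries per group these values cannot decide whether the numbers pair libraries. Under the replicate block Map1lc3b had 2.04 (adjusted p = 0.0569, edgeR) and 505 genes passed in all. Of the other pathway genes 3 were higher, against 8 with DESeq2 and with quality weights, 1 with FPKM and with the "ji" term, and 0 to 9 without 1 library. Over all genes, 442 higher and 91 lower became 1320 and 429 with DESeq2, 262 higher with limma-voom, 1059 and 356 with quality weights, 249 and 268 with FPKM, 755 and 153 with no filter, 225 lower with library totals, 248 and 32 with the "ji" term, 171 and 30 without both "ji" libraries, and 0 to 1286 higher and 0 to 398 lower without 1 library. The members' median was -0.29 with library totals and -0.28 with FPKM. Of the fold changes of the 36 members and the 3 other pathway genes called, 568 kept their direction and call under an alternative. Another 19 passed where the main fit had not, and 26 no longer passed. The other 50 reversed sign, all of them fold changes of members that had not passed. With library totals these were Rb1cc1 -0.075, Becn1 -0.31, Gabarapl2 -0.27, Atg4b -0.11 and Tfe3 -0.15. With FPKM they were Rb1cc1 -0.080, Becn1 -0.28, Gabarapl2 -0.36, Atg4b -0.15, Atg12 -0.0069, Tfe3 -0.16 and Vcp -0.069. With quality weights they were Ulk2 0.070, Becn1 -0.037, Atg2a 0.029 and Mcoln1 0.088. Becn1 and Gabarapl2 also reversed with TMM without mitochondrial and haemoglobin genes (-0.015 and -0.021), DESeq2 (-0.0080 and -0.0094), no filter (-0.035 and -0.024) and without both "ji" libraries (-0.0060 and -0.098, with Atg5 at 0.072). Gabarapl2 was -0.033 with limma-voom, -0.052 under the replicate block and -0.0037 with the "ji" term, and Atg5 was 0.0050 with DESeq2 size factors. Without 1 library the ranges that crossed 0 were Ulk1 -0.078 to 0.87, Ulk2 -0.17 to 0.10, Becn1 -0.13 to 0.047, Atg9a -0.39 to 0.13, Atg2a -0.37 to 0.038, Map1lc3a -0.89 to 0.050, Gabarapl2 -0.19 to 0.25, Atg4b -0.041 to 0.32, Atg5 -0.13 to 0.15, Sqstm1 -0.031 to 0.93, Tfe3 -0.024 to 0.26, Mcoln1 -0.35 to 0.13 and Vcp -0.0092 to 0.51. The cause was not tested. Depth limits Atg4c and Ctss most.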
